A study of Mus musculus with 16 samples.

Results

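Hox genes were followed across 4 populations of cells sorted as mouse colon fibroblasts. Members were all genes whose array symbol is Hoxa, Hoxb, Hoxc or Hoxd with a number, taken from probe sets (groups of short probes for 1 transcript) that name no other gene: 34 genes on 42 probe sets, out of 17097 genes and 45037 probe sets on the array. Of the 34 genes, 9 belong to the Hoxa cluster, 10 to Hoxb, 6 to Hoxc and 9 to Hoxd. Fibroblasts carrying the surface protein gp38, and lacking Epcam, CD45 and CD31, were taken from the colons of 4 C57BL/6 mice of the genotype Gli1CreERT2-ZsGreen, whose age is not given in the sources used here. All mice had 1 mg tamoxifen on 5 days running and were killed on day 6, so every group carries the same transgenes and the same drug, and there is no untreated group. Cre in these mice is driven by Gli1, a target gene of Hedgehog signalling, so ZsGreen marks cells, and the offspring of cells, in which Gli1 was on while tamoxifen was present. Sorting by Sca1 and ZsGreen gave Sca1+Gli1ZsGreenhigh cells (reporter-high), Sca1+Gli1ZsGreendim cells (reporter-dim), Sca1+Gli1ZsGreen- cells (Sca1+ reporter-negative, Sca1+ negative for short) and Sca1-Gli1ZsGreen- cells (Sca1-). By the labels, each mouse gave each population once, which the signal of the gene Xist (below) did not bear out for mouse 2. From each population of each mouse, 2 ng of RNA went to 1 array, 16 arrays in all. The labels name the colon without a segment.

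Hox genes encode homeodomain transcription factors that give cells of the embryo their position along the head-to-tail axis. They lie in clusters, and the order of the genes along a cluster, given by their paralog number, follows the order in which they are switched on from anterior (low numbers) to posterior (high numbers). Fibroblasts of adult organs keep much of this positional code, and in the hindgut the posterior genes are active in the mesenchyme. Hox proteins bind DNA together with Pbx and Meis proteins, and Polycomb proteins hold the genes silent where they are not used.

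Values are array signals. Array medians ran from 662 to 687, and a signal is called above background here when it exceeds the highest of 23 nonspecific control probe sets on its array, which lay between 234 and 488. Within a population, pairs of arrays correlated at 0.968 to 0.994 on the log2 scale. All 12 measured fibroblast markers were above background in every population, and Pdpn, Fbln1, Vim, Thy1 and Cd34, 5 of them, had higher signals in reporter-high cells than in Sca1+ negative ones. Epithelial markers, which the gate should leave out, were not at background either: the summed signal of 17 of them ran from 46624 to 180912 in reporter-high, 192032 to 330416 in reporter-dim cells, 290874 to 425558 in Sca1+ negative and 261358 to 454818 in Sca1- cells. Of the 17, all were lower in reporter-high than in Sca1+ negative cells, and limma called 0 between the latter and Sca1- cells (0 at an unadjusted p under 0.05). Between reporter-high and the Sca1+ negative population 7 of 9 smooth muscle markers were higher in reporter-high cells. There 7 of 10 endothelial markers were lower and 1 higher, and 4 of 9 leukocyte and 5 of 8 mesothelial ones lower. Of all probe sets 26.2% were called (15.2% higher, the rest lower). Cd3e of the leukocyte list and Msln and Rspo1 of the mesothelial list, called lower, were at background in both populations. The mean of the highest nonspecific control was itself lower in reporter-high (272) than in Sca1+ negative cells (392). The part of these lists in the Hox results was not tested. A list of 5 markers of interstitial cells of Cajal, the pacemaker cells of gut muscle, summed to between 31647 and 53113 in Sca1- cells against 18389 to 27676 over the Sca1+ arrays. Xist was low (424 to 671) on 6 arrays and high (18116 to 24417) on 10. The low arrays were those of mice 1 and 2 in both ZsGreen populations, but of mouse 1 alone in Sca1+ negative and Sca1- cells. Comparisons of a ZsGreen with a negative population thus differ in Xist status too, and its part was not tested. The 4 arrays of mouse 2 held both kinds, so Xist did not bear out the label of mouse 2. Any pairing of arrays by mouse, count of mice or fit with the mouse as a block follows the labels. With arrays scaled to 18 hybridization control probe sets, the median of all probe sets in reporter-high cells rose by 0.39 on the log2 scale against Sca1+ negative, 0.32 against reporter-dim and 0.43 against Sca1- cells. Changes below are relative to a common array median unless that scaling is named.

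The upstream sequences of 4 members are shown to set genes called in opposite directions side by side: Hoxa11 and Hoxd10 were higher, and Hoxa5 and, near background, Hoxb8 lower, in reporter-high than in Sca1+ negative cells. They are the 250 bases before the transcription start, from RefSeq on build GRCm38.p6. Hoxa11 is at chr6:52245811-52246060 and Hoxa5 at chr6:52204588-52204837, both on the minus strand; Hoxd10 is at chr2:74691641-74691890 and Hoxb8 at chr11:96281655-96281904, both on the plus strand. Capitals mark CG dinucleotides, which are dense in promoters under Polycomb control.
Hoxa11: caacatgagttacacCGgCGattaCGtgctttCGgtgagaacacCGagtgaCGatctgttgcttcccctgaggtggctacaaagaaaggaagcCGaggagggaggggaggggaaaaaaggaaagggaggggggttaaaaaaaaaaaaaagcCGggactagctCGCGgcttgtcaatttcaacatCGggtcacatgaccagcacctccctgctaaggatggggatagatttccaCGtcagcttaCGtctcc
Hoxd10: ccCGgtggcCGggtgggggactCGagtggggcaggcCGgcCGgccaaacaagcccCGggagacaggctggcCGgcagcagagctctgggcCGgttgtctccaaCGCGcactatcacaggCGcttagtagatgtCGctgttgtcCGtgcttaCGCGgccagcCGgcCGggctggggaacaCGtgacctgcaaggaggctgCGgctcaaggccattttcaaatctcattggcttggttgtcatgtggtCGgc
Hoxa5: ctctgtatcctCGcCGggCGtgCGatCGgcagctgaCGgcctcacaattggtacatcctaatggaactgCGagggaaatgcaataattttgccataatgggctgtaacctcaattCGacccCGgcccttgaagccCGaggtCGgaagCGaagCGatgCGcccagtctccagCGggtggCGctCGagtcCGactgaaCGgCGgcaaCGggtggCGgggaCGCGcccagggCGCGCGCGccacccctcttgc
Hoxb8: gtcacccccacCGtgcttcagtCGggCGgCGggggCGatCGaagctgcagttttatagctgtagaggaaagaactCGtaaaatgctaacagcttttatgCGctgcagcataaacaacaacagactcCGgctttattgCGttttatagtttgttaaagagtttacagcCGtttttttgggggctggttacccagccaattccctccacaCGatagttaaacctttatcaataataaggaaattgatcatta
These stretches hold 13, 20, 28 and 12 CG dinucleotides in the order shown. RefSeq gave 23 promoter windows (250 bases before to 50 after the start) for 21 of the measured Hox genes, with a median of 14 CG dinucleotides per window against 7 over all 32841 windows. On both strands, the Cdx site TTTATG was found in 5 Hox windows (21.7%, against 11.9% of all windows), the TATA box TATAAA, which differs from the reverse complement of the Cdx site in its first letter and was counted separately, in 4 (17.4% against 13.6%), the joint Pbx and Hox site TGATTNAT in 2 (8.70% against 3.22%) and the Meis site TGACAG in 2 (8.70% against 19.2%). The Gli site GACCNCCCA was in 0 of 23 Hox windows and in 0.977% of all windows. The Hoxb8 stretch holds 2 matches each of the Cdx site and the TATA box, and the other 3 sequences hold none of the 5 motifs. A match is a run of letters, not a measured site.

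Most Hox genes were measurable in the sorted colon populations, and the posterior end of the Hoxa and Hoxd clusters was measured throughout. Markers of epithelium and other cell types were also above background in these populations, so the signals cannot be assigned to fibroblasts alone. Above background on all 16 arrays were 21 of the 34 genes: 7 of 9 in the Hoxa cluster (Hoxa3, Hoxa5, Hoxa7, Hoxa9, Hoxa10, Hoxa11 and Hoxa13), 6 of 10 in Hoxb (Hoxb3, Hoxb4, Hoxb5, Hoxb6, Hoxb9 and Hoxb13), 2 of 6 in Hoxc (Hoxc5 and Hoxc10) and 6 of 9 in Hoxd (Hoxd8 to Hoxd13 without a gap). At background on all 16 arrays were 6 genes: Hoxb1, Hoxc4, Hoxc8, Hoxc13, Hoxd1 and Hoxd3. The other 7 passed on some arrays, from 2 of 16 for Hoxa4 and Hoxc9 to 11 of 16 for Hoxb2. A signal at background bounds the level from above and does not show that the gene was silent.

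**Figure D1:**
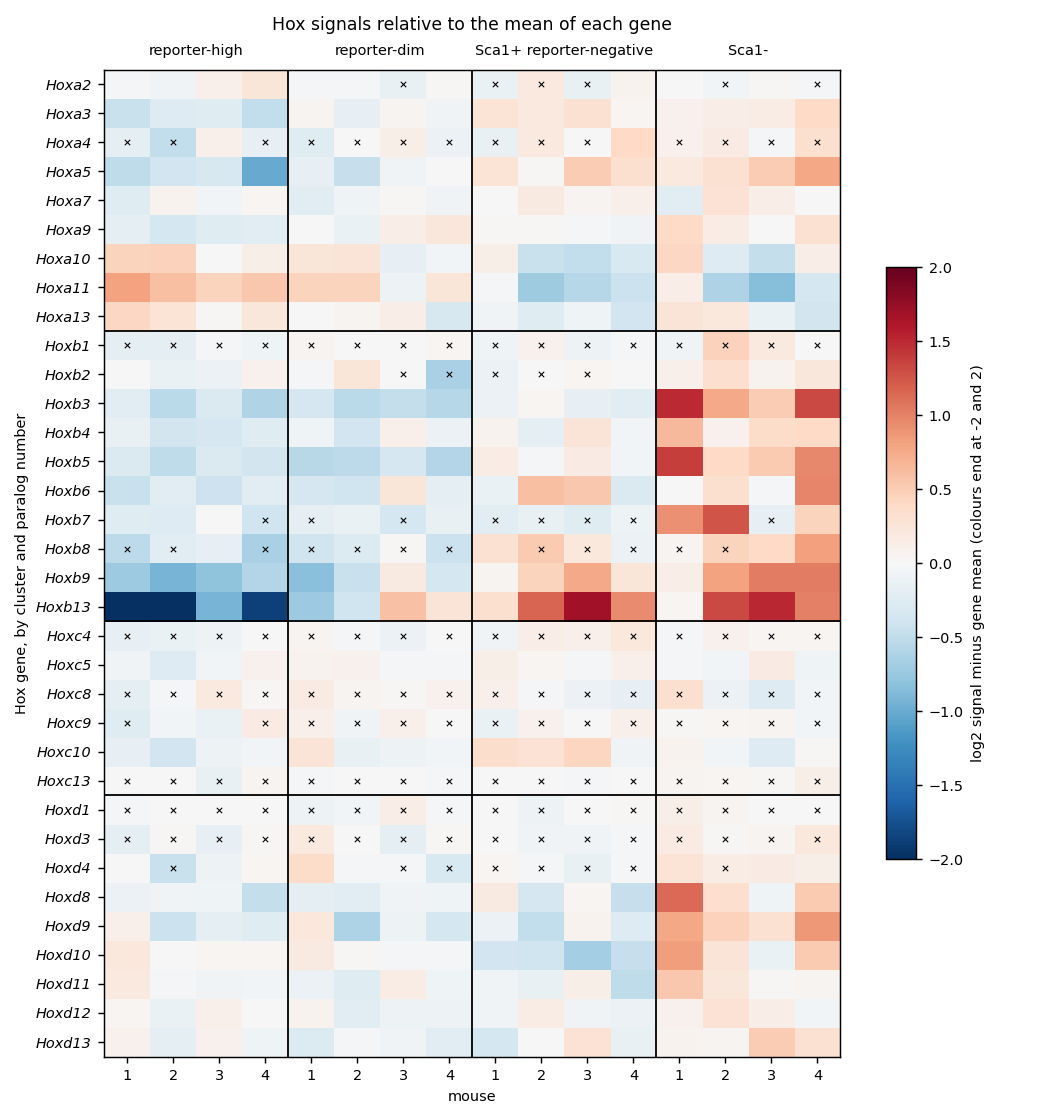
Log2 signal of each of the 34 Hox genes (1 line per gene, by cluster and paralog number) on each of the 16 arrays (1 column per mouse within each population), minus the mean of that gene over all arrays; crosses mark signals at or below the highest nonspecific control. Hoxb13 is low in the 4 reporter-high columns, Hoxb3, Hoxb5 and Hoxd9 are high in the 4 Sca1- columns, and crosses fill the lines of Hoxb1, Hoxc4, Hoxc8, Hoxc13, Hoxd1 and Hoxd3 and part of those of Hoxa2, Hoxa4, Hoxb2, Hoxb7, Hoxb8, Hoxc9 and Hoxd4.

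Against Sca1- cells, nearly all Hox calls were of lower signals in the Sca1+ populations, and Hoxa11 was the only gene called higher. Differences were tested with limma over all probe sets (Benjamini-Hochberg adjusted p under 0.05). Between reporter-high and Sca1- cells 20 of 42 Hox probe sets were called, 1 higher and 19 lower, beside 31.2% of all probe sets (17.2% higher, the rest lower). Between reporter-dim and Sca1- cells 12 were called, 1 higher and 11 lower, beside 11.6% of all (6.71% higher and 4.94% lower). Between Sca1+ negative and Sca1- cells 6 were called, all lower, beside 2.31% of all (1.03% higher and 1.28% lower); at an unadjusted p under 0.05 there were 14 lower and 1 higher. These 3 comparisons share the Sca1- arrays, and each population enters 3 of the 6 comparisons. In cells sorted in bulk, fewer cells of a type and less RNA per cell cannot be told apart.

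Among the Sca1+ populations the Hox share was close to that of all probe sets. Between reporter-high and Sca1+ negative cells 12 Hox probe sets were called, 4 higher and 8 lower, beside 26.2% of all (15.2% higher, the rest lower). Between reporter-high and reporter-dim cells 1 was called, lower, beside 0.757% of all (0.298% higher and 0.460% lower). Between reporter-dim and Sca1+ negative cells limma called 0, beside 0.933% of all (0.608% higher and 0.324% lower), with 9 at an unadjusted p under 0.05 (2 higher and 7 lower). With the mouse as a block 5 were called, and 2 when mouse 2 was left out of the blocked fit. The share of all probe sets called in the blocked fits is not given here, so these counts cannot be set beside it. Adjusted p-values given below with the mouse as a block come from the limma fit that keeps mouse 2, whose pairing Xist did not bear out. The F test over all 4 populations called 16, beside 27.8% of all. Scaling to the hybridization controls turned the balance in reporter-high cells, as it did for all probe sets, of whose calls 94.5% were higher against Sca1+ negative, 97.8% against reporter-dim and 94.2% against Sca1- cells. Hox calls in these comparisons were 17 higher and 3 lower, 11 and 1, and 12 and 5. The same scaling gave 2 higher and 0 lower for reporter-dim against Sca1+ negative cells. Of the 40 differences of single genes called, 24 kept their call under that scaling, 14 lost it (8 of the 15 for reporter-high against Sca1- cells) and 2 turned sign, Hoxc4 and Hoxb1, both at background.

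In the Hoxa cluster, Hoxa3 and Hoxa5 were lower and Hoxa10, Hoxa11 and Hoxa13 higher in reporter-high than in Sca1+ negative cells. Hoxa3 was called by 1 of its 4 probe sets, its main one, and the differences of the 4 ran from -0.56 to -0.06. Along the cluster the log2 difference was 0.07 for Hoxa2, -0.56 ± 0.09 (SE) for Hoxa3, -0.30 for Hoxa4, -0.84 ± 0.16 for Hoxa5, -0.14 for Hoxa7, -0.24 for Hoxa9, 0.54 ± 0.19 for Hoxa10, 1.04 ± 0.19 for Hoxa11 and 0.42 ± 0.14 for Hoxa13. Adjusted p was 0.000679 for Hoxa3, 0.0017 for Hoxa5, 0.0442 for Hoxa10, 0.00151 for Hoxa11 and 0.0352 for Hoxa13, while Hoxa2, Hoxa4, Hoxa7 and Hoxa9 (0.0552) did not pass. Of the 9 Hoxa genes 3 rose and 2 fell, beside 26.2% of all probe sets called (15.2% higher, the rest lower). The median over the 9 was -0.14, beside -0.0020 over all genes.

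**Figure D2:**
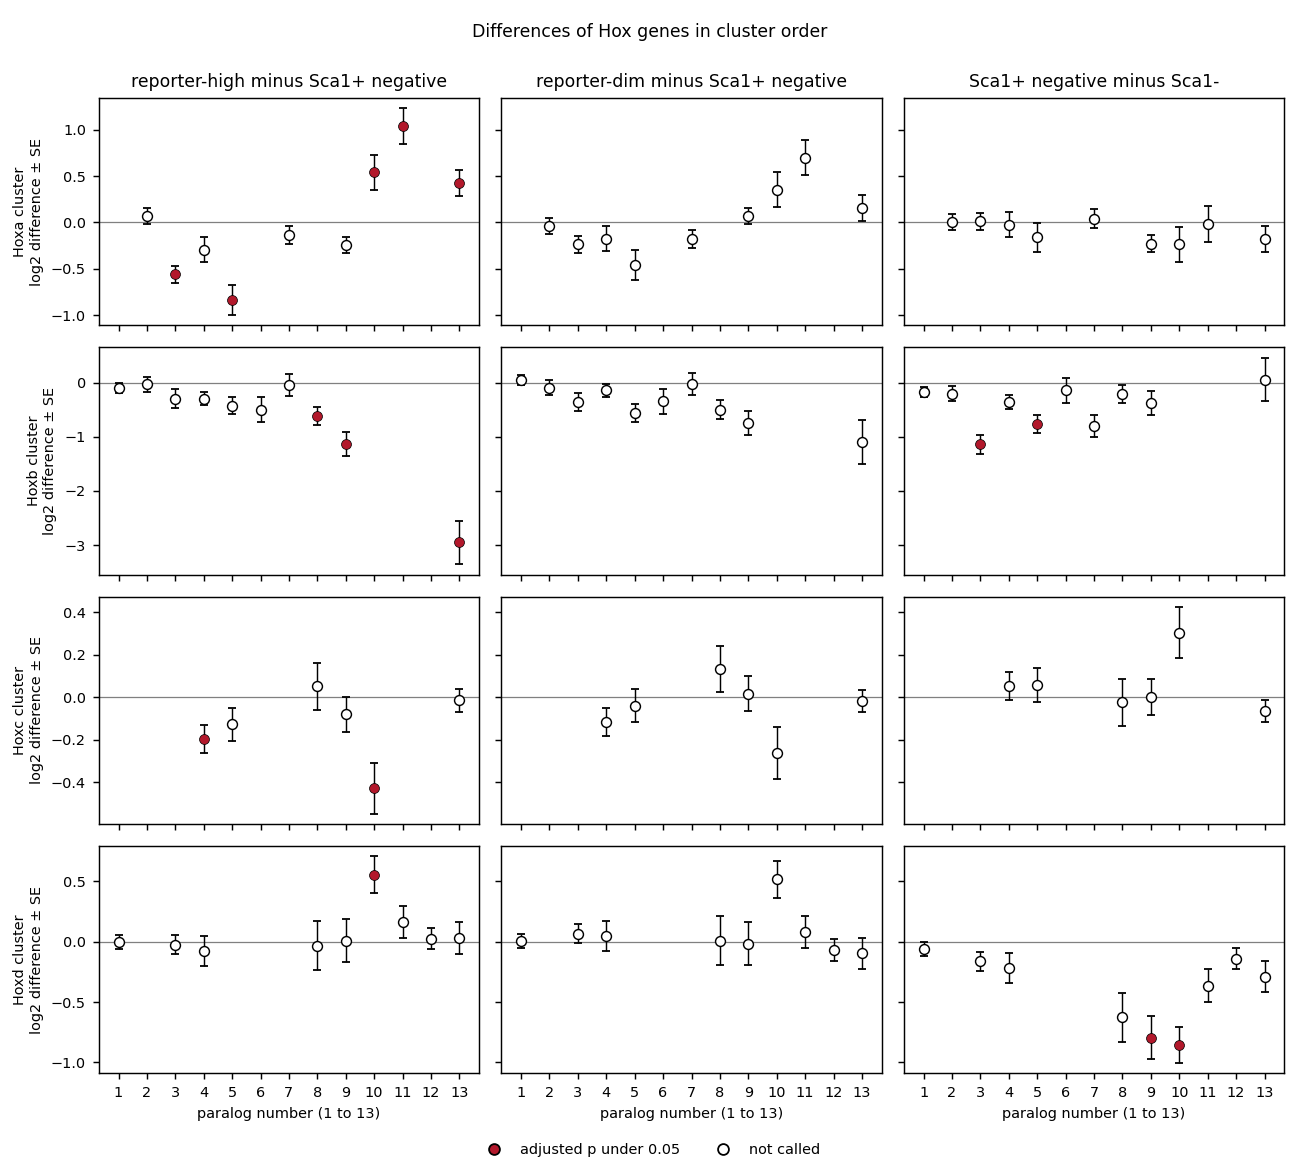
Log2 difference ± SE (n = 4 arrays per population) of each Hox gene against its paralog number, 1 line of panels per cluster and 1 column per comparison; filled points passed an adjusted p of 0.05 and the vertical scale differs between clusters. For reporter-high minus Sca1+ negative cells the Hoxa points climb from -0.84 at Hoxa5 to 1.04 at Hoxa11 and the Hoxb points end at -2.95 at Hoxb13.

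Hoxa11, which patterns the forearm and the uterus, gave signals of 3631, 3172, 2823 and 3024 (mice 1 to 4) in reporter-high, 2847, 2826, 1947 and 2462 in reporter-dim cells, 2025, 1271, 1394 and 1546 in Sca1+ negative and 2292, 1353, 1153 and 1636 in Sca1- cells. All reporter-high arrays lay above all arrays of both ZsGreen-negative populations, and the reporter-dim arrays overlapped both sides: mice 1 and 2 lay above reporter-high mouse 3, and mouse 3 lay below mouse 1 of the negative populations. Against Sca1- cells Hoxa11 was higher by 1.02 ± 0.19 in reporter-high (adjusted p = 0.000994) and by 0.68 ± 0.19 in reporter-dim cells (adjusted p = 0.0338), under 4 of 4 mouse labels each. Against Sca1+ negative cells the reporter-dim difference was 0.70 ± 0.19 (adjusted p = 0.0852; 0.00475 with the mouse as a block). The call of reporter-dim against Sca1- cells was lost without mouse 2 (adjusted p = 0.265), mouse 3 (0.074) or mouse 4 (0.164).

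Hoxa10, needed in the uterus and hindlimb, read 4342, 4352, 3201 and 3444 in reporter-high, 3760, 3784, 2829 and 3064 in reporter-dim cells, 3438, 2325, 2263 and 2570 in Sca1+ negative and 4230, 2661, 2287 and 3495 in Sca1- cells. It was higher in reporter-high than in Sca1+ negative cells under each of the 4 mouse labels, of which Xist did not bear out mouse 2. The groups overlapped through mouse 1. Its call was lost without mouse 2 (adjusted p = 0.269), mouse 3 (0.0629) or mouse 4 (0.134). Hoxa13, which patterns digits and hindgut, read 765, 700, 584 and 674 in reporter-high, 575, 601, 633 and 461 in reporter-dim cells, 551, 489, 546 and 443 in Sca1+ negative and 686, 668, 526 and 448 in Sca1- cells. The reporter-high arrays lay above the Sca1+ negative ones without overlap, and overlapped the other 2 populations. The Hoxa13 call was lost without mouse 1 (adjusted p = 0.0829), mouse 2 (0.172) or mouse 4 (0.0743).

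Hoxa5, which acts in lung and gut mesenchyme, read 755, 819, 856 and 536 in reporter-high, 961, 783, 1016 and 1068 in reporter-dim cells, 1302, 1089, 1525 and 1343 in Sca1+ negative and 1234, 1319, 1526 and 1834 in Sca1- cells. All arrays of both ZsGreen populations lay below all arrays of both negative populations. Against Sca1- cells the level was 2.00-fold lower in reporter-high cells (log2 SE 0.16, adjusted p = 0.000282) and the log2 difference was -0.62 ± 0.16 in reporter-dim cells (adjusted p = 0.0206). The latter call was lost without mouse 2 (0.112), mouse 3 (0.0762) or mouse 4 (0.0505). Hoxa3, a gene of the pharyngeal arches, read 1970, 2245, 2286 and 1920 in reporter-high, 2790, 2398, 2783 and 2550 in reporter-dim cells, 3255, 3091, 3314 and 2750 in Sca1+ negative and 2858, 2944, 2967 and 3562 in Sca1- cells. Its 4 reporter-high arrays were the lowest of the 16, and the difference from Sca1- cells was -0.55 ± 0.09 (adjusted p = 0.000353). Hoxa9, a posterior gene also active in blood progenitors, read 1661, 1503, 1616 and 1629 in reporter-high, 1900, 1745, 2099 and 2232 in reporter-dim cells, 1934, 1943, 1878 and 1823 in Sca1+ negative and 2521, 2110, 1932 and 2360 in Sca1- cells. Its reporter-high arrays were likewise the 4 lowest, and it was called against Sca1- cells (-0.47 ± 0.09, adjusted p = 0.000891). Hoxa7 stayed within population means of 1093 to 1235 and was called in no comparison, and Hoxa2 and Hoxa4 were mostly near background.

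**Figure D3:**
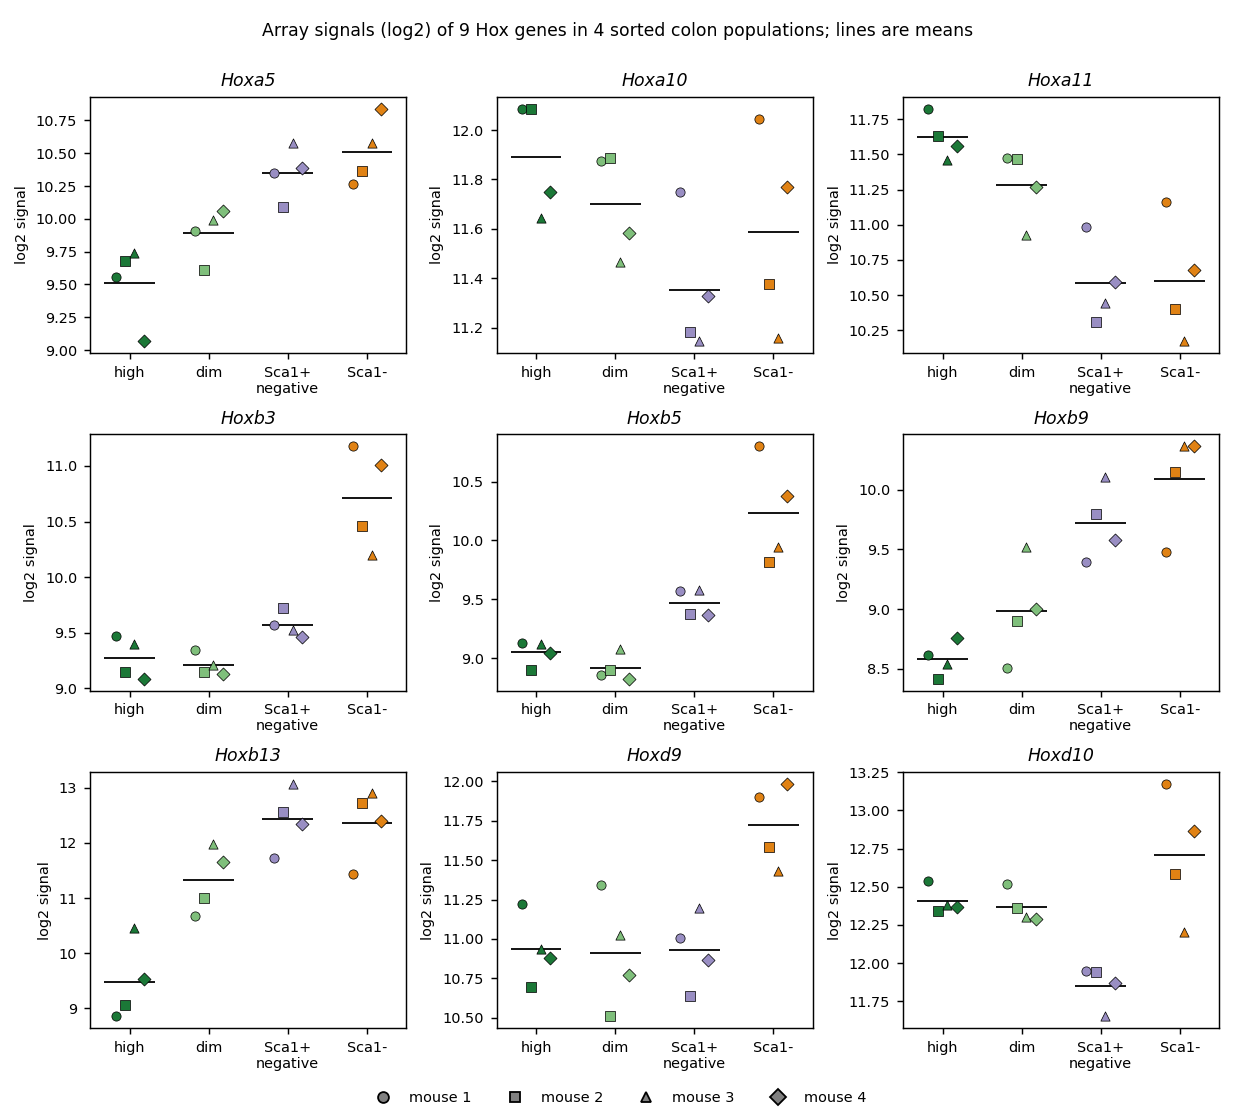
Log2 array signals of 9 Hox genes, 1 point per array with its mouse as the symbol, and the mean of each population as a line. Hoxa11 descends and Hoxa5 climbs from reporter-high to the negative populations, Hoxb3, Hoxb5 and Hoxd9 stand out in Sca1- cells, and Hoxd10 is lowest in Sca1+ negative cells.

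The Hoxb cluster held Hoxb13, the Hox gene with the largest difference, and more called genes than the other clusters when either ZsGreen population was set against Sca1- cells. Against Sca1- cells, 9 of its 10 genes were lower in reporter-high cells (median over the 10 genes -0.83, beside -0.01 over all genes). Of all probe sets 31.2% were called in that comparison (17.2% higher, the rest lower). In reporter-dim against Sca1- cells 6 of the 10 were lower (median -0.76), beside 4.94% of all probe sets called lower. Against Sca1+ negative cells 3 fell in reporter-high cells, the 3 with the highest paralog numbers. These were Hoxb8 (-0.62 ± 0.17, adjusted p = 0.0138), Hoxb9 (-1.14 ± 0.22, 0.00186) and Hoxb13 (-2.95 ± 0.40, 0.0003), each lower under 4 of 4 mouse labels. Hoxb8 was above background on 1 of 4 arrays in either population, and the mean of the highest nonspecific control was itself lower in reporter-high (272) than in Sca1+ negative cells (392), so its difference is that of signals near background.

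Hoxb13, known from the tail bud, prostate and distal gut, read 461, 534, 1413 and 741 in reporter-high, 1637, 2045, 4067 and 3226 in reporter-dim cells, 3373, 6088, 8643 and 5210 in Sca1+ negative and 2776, 6756, 7710 and 5423 in Sca1- cells. The reporter-high arrays lay below all others, the reporter-dim arrays came next with some overlap, and the negative populations overlapped fully. The mean signal in reporter-high cells was 7.74-fold below that of Sca1+ negative cells by the fitted difference and 7.43-fold below that of Sca1- cells. It was the only Hox gene called between reporter-high and reporter-dim cells (-1.85 ± 0.40, adjusted p = 0.0497), a call lost without mouse 2 (0.295) or mouse 4 (0.314). For reporter-dim cells the difference was -1.10 ± 0.40 against Sca1+ negative (adjusted p = 0.159; 0.00354 with the mouse as a block) and -1.04 ± 0.40 against Sca1- cells (0.114; 0.00107 with the block).

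Hoxb13 moved with the epithelial markers and, within each population, with Xist status. The mean log2 signal of the 17 epithelial markers on the same arrays was 11.38, 11.06, 12.99 and 12.04 in reporter-high cells, 12.96, 13.10, 13.94 and 13.72 in reporter-dim cells, 13.71, 14.19, 14.34 and 14.13 in Sca1+ negative and 13.44, 14.26, 14.43 and 14.17 in Sca1- cells. In each population mouse 3 was the highest array for both measures. Hoxa11 ran the opposite way: in reporter-high, reporter-dim and Sca1- cells its lowest array was that of mouse 3, though not in Sca1+ negative cells. Xist status sorted the arrays in the same way. In every population each Xist-low array had less Hoxb13, a lower epithelial mean and more Hoxa10 and Hoxa11 than each Xist-high array. The parts of epithelial content and Xist status were not tested. With the mean of the epithelial markers as a covariate the Hoxb13 difference between reporter-high and Sca1+ negative cells was -0.57 (adjusted p = 0.656), that of Hoxa11 0.19 (0.934) and that of Hoxa10 turned to -0.40 (0.692). The epithelial mean itself did not overlap between these 2 populations, so the list and the population cannot be told apart in that fit. Expression of any Hox gene in epithelial cells was not measured separately.

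**Figure D4:**
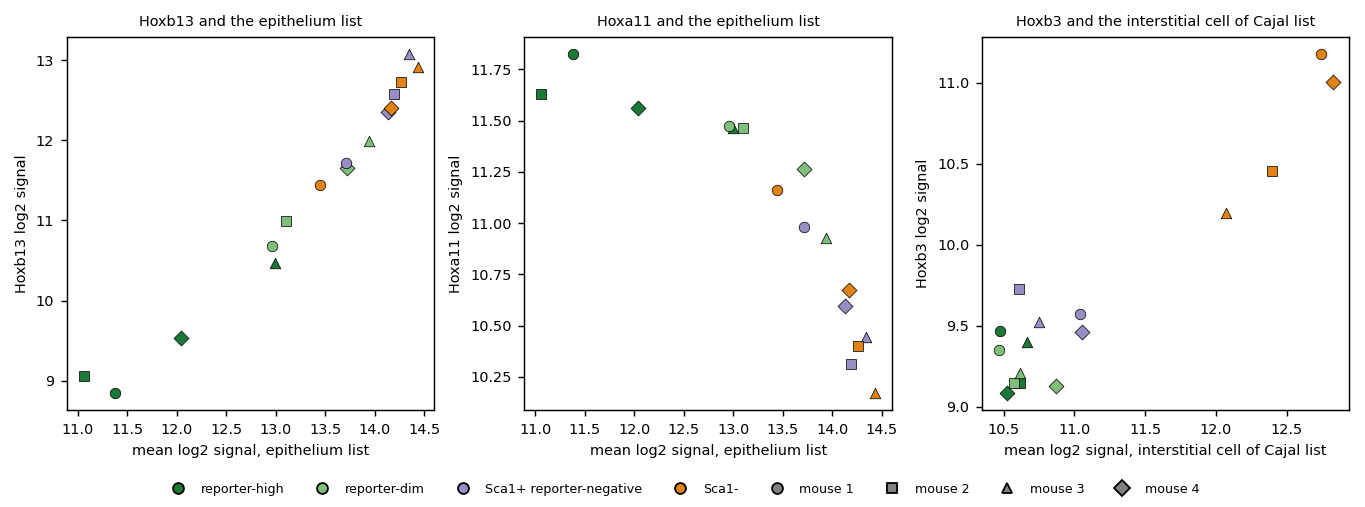
Log2 signal of Hoxb13 and Hoxa11 against the mean log2 signal of the 17 epithelial markers, and of Hoxb3 against that of the 5 interstitial cell of Cajal markers, 1 point per array, coloured by population and with the mouse as symbol. Hoxb13 climbs and Hoxa11 descends over epithelial means from 11.06 to 14.43, and the 4 Sca1- arrays stand apart in the plot of Hoxb3, at Cajal means from 12.07 to 12.82.

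Hoxb9, which shapes the ribs, read 391, 341, 371 and 432 in reporter-high, 363, 478, 734 and 511 in reporter-dim cells, 673, 887, 1101 and 764 in Sca1+ negative and 712, 1133, 1318 and 1320 in Sca1- cells. Reporter-high arrays lay below both negative populations without overlap. Against Sca1- cells the difference was -1.51 ± 0.22 in reporter-high (adjusted p = 0.000148) and -1.11 ± 0.22 in reporter-dim cells (0.00461, lost without mouse 2 at 0.0821 or mouse 4 at 0.072). Against Sca1+ negative cells the reporter-dim difference was -0.74 ± 0.22 (adjusted p = 0.103; 0.0121 with the mouse as a block). Hoxb8 was near background: its probe set, of a design that may match related transcripts, read 213, 260, 274 and 195 in reporter-high, 233, 254, 310 and 226 in reporter-dim cells, 377, 438, 352 and 282 in Sca1+ negative and 318, 417, 404 and 541 in Sca1- cells. In reporter-dim cells it was at background on all 4 arrays, and Sca1- cells were at least 1.25-fold higher (adjusted p = 0.014; lost without mouse 2 at 0.105 or mouse 4 at 0.0843). The call against Sca1+ negative cells was lost without mouse 1 (0.0514) or mouse 2 (0.0992).

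Hoxb3 and Hoxb5 of this cluster, and Hoxd9 (below), set Sca1- cells apart. Of the 4 Hoxb genes with paralog numbers 1 to 4, 1 was called lower in Sca1+ negative than in Sca1- cells, beside 1.28% of all probe sets. Hoxb3, an anterior gene of the hindbrain and pharynx, read 709, 568, 676 and 543 in reporter-high, 652, 568, 592 and 559 in reporter-dim cells, 760, 846, 736 and 704 in Sca1+ negative and 2317, 1405, 1174 and 2058 in Sca1- cells. Every Sca1- array lay above every other array. The log2 difference from Sca1- cells was -1.14 ± 0.17 in Sca1+ negative (adjusted p = 0.00157), -1.43 ± 0.17 in reporter-high (3.77e-05) and -1.50 ± 0.17 in reporter-dim cells (9.66e-05). Its second probe set was called in all 3 as well, with Sca1- cells at least 1.27-fold above Sca1+ negative and at least 1.49-fold above reporter-dim cells, where it was at background. Without mouse 4 the first of these calls had an adjusted p of 0.0625.

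Hoxb5, active in the gut wall and its nerve cells, read 561, 479, 559 and 529 in reporter-high, 464, 478, 542 and 454 in reporter-dim cells, 762, 664, 764 and 661 in Sca1+ negative and 1783, 904, 984 and 1330 in Sca1- cells. Here 3 levels separated without overlap: both ZsGreen populations together, then Sca1+ negative, then Sca1- cells. Against Sca1- cells the difference was -0.76 ± 0.16 in Sca1+ negative (adjusted p = 0.0189), -1.18 ± 0.16 in reporter-high (9.01e-05) and -1.32 ± 0.16 in reporter-dim cells (0.000156). The first call was lost without mouse 2 (0.0525), mouse 3 (0.0523) or mouse 4 (0.306). Against Sca1+ negative cells the difference was -0.42 ± 0.16 in reporter-high (adjusted p = 0.0657; 0.0444 with the block) and -0.56 ± 0.16 in reporter-dim cells (0.0941; 0.0297 with the block).

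Hoxb4, a regulator of blood stem cells, read 540, 463, 473 and 506 in reporter-high, 561, 458, 644 and 549 in reporter-dim cells, 625, 527, 711 and 574 in Sca1+ negative and 940, 633, 770 and 791 in Sca1- cells. It was called lower in reporter-high (-0.65 ± 0.13, adjusted p = 0.00113) and reporter-dim cells (-0.50 ± 0.13, 0.0183, lost without mouse 1 at 0.0718 or mouse 4 at 0.139). Its main probe set did not pass between Sca1+ negative and Sca1- cells (-0.36, adjusted p = 0.208), while its second did (-0.32, 0.0386). Hoxb7 read 291, 286, 342 and 262 in reporter-high, 303, 312, 269 and 311 in reporter-dim cells, 294, 309, 289 and 319 in Sca1+ negative and 651, 819, 308 and 466 in Sca1- cells. Only 3 of its 4 Sca1- arrays stood out, that of mouse 3 being among the Sca1+ values. The calls against Sca1- cells, -0.84 ± 0.21 in reporter-high (adjusted p = 0.00626) and -0.82 ± 0.21 in reporter-dim cells (0.0194), were both lost without mouse 1 (0.0524 and 0.0873) or mouse 2 (0.0738 and 0.155), and the latter without mouse 4 (0.1).

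Hoxb6 read 314, 364, 318 and 370 in reporter-high, 339, 324, 504 and 372 in reporter-dim cells, 387, 644, 617 and 350 in Sca1+ negative and 424, 531, 417 and 840 in Sca1- cells. Its arrays scattered widely outside reporter-high cells, and its 1 call, reporter-high against Sca1- cells (-0.64 ± 0.23, adjusted p = 0.0492), was lost without any single mouse (0.0597 to 0.156). Hoxb1, at background throughout, passed against Sca1- cells in reporter-high cells (-0.27 ± 0.09, adjusted p = 0.0405; lost without mouse 2, 3 or 4 at 0.249, 0.122 and 0.0672) but has no level to compare. Hoxb2 was called in no comparison.

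In the Hoxd cluster, 2 genes were higher in Sca1- than in Sca1+ negative cells and Hoxd10 was in addition higher in reporter-high cells. Hoxd10, a gene of the hindlimb and lumbar spinal cord, read 5956, 5200, 5323 and 5295 in reporter-high, 5855, 5264, 5051 and 5005 in reporter-dim cells, 3953, 3927, 3215 and 3738 in Sca1+ negative and 9247, 6140, 4712 and 7448 in Sca1- cells. The 4 Sca1+ negative arrays were the lowest of the 16, and the other 3 populations overlapped. The difference was 0.56 ± 0.15 for reporter-high (adjusted p = 0.0135) and 0.52 ± 0.15 for reporter-dim (0.0976; 0.0164 with the mouse as a block) against Sca1+ negative cells, and -0.85 ± 0.15 for the latter against Sca1- cells (0.00563). Without mouse 2 or mouse 4 the reporter-high call (0.0731 and 0.0763) and the Sca1- call (0.0701 and 0.145) were lost.

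Hoxd9, which acts with its neighbours in the limb, read 2385, 1659, 1964 and 1887 in reporter-high, 2597, 1457, 2086 and 1747 in reporter-dim cells, 2056, 1593, 2350 and 1868 in Sca1+ negative and 3814, 3065, 2762 and 4052 in Sca1- cells. Every Sca1- array exceeded every other array, and the 3 Sca1+ populations had nearly the same means, 1974, 1972 and 1967. The difference from Sca1- cells was -0.80 ± 0.18 in Sca1+ negative (adjusted p = 0.0272), -0.79 ± 0.18 in reporter-high (0.00329) and -0.81 ± 0.18 in reporter-dim cells (0.00826). Leaving out mouse 4 ended all 3 calls (0.358, 0.0522 and 0.127), mouse 2 ended those of Sca1+ negative and reporter-dim cells (0.106 and 0.0555) and mouse 3 that of Sca1+ negative cells (0.0517). Hoxd8 read 1327, 1377, 1360 and 1037 in reporter-high, 1256, 1245, 1371 and 1349 in reporter-dim cells, 1628, 1135, 1471 and 1040 in Sca1+ negative and 3160, 1814, 1356 and 2061 in Sca1- cells. Mouse 3 of the Sca1- cells again fell among the Sca1+ values. Hoxd8 was called against reporter-high cells (-0.66 ± 0.20, adjusted p = 0.0216), a call lost without mouse 1 (0.0608), mouse 2 (0.0765) or mouse 4 (0.141); its second probe set passed for reporter-dim against Sca1- cells (-0.50, 0.0414). Hoxd11 and Hoxd12 were called in no comparison, and Hoxd13, a gene of digits and hindgut, passed only through its second probe set, between reporter-high and Sca1- cells (-0.38 ± 0.10, adjusted p = 0.00982); the main one had population means of 3198 to 4199.

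Sca1- arrays differed in other markers too. Their 4 arrays had Kit signals of 4305, 3296, 2433 and 5249, against population means of 232 in reporter-high, 266 in reporter-dim and 545 in Sca1+ negative cells, and 4 of the 5 Cajal markers (Kit, Ano1, Etv1 and Prkcq) were lower in each Sca1+ population. The pericyte marker Rgs5 read 43305, 32743, 21047 and 37880 in Sca1- cells, with mice in the same order as for Hoxb3. Rgs5 was the only 1 of 5 pericyte markers called between Sca1+ negative and Sca1- cells; Pdgfrb was called the other way, higher in reporter-high (by 1.14 ± 0.16) and in reporter-dim than in Sca1- cells, Kcnj8 was lower in reporter-dim cells (-1.45 ± 0.42), and Notch3 and Mcam passed in none of the comparisons with Sca1- cells. Of the 12 fibroblast markers 10 were higher in reporter-high, 10 in reporter-dim and 1 (Cd34) in Sca1+ negative than in Sca1- cells, and 3 of 7 glia and neuron markers were called between Sca1+ negative and Sca1- cells. For Hoxb3, Hoxb7, Hoxd8, Hoxd9 and Hoxd10 the lowest Sca1- array was that of mouse 3, which was lowest for Kit and Rgs5 as well; for Hoxb4 and Hoxb5 it was that of mouse 2 and for Hoxb9 and Hoxb13 that of mouse 1. With the Cajal mean as a covariate none of the 4 genes called between Sca1+ negative and Sca1- cells passed, at differences of -0.17 for Hoxb3, 0.16 for Hoxb5, -0.27 for Hoxd9 and 0.10 for Hoxd10. That mean does not overlap between Sca1- and Sca1+ arrays, so marker list and population cannot be told apart. The epithelial covariate left the 6 calls between Sca1+ negative and Sca1- cells in place, and Hoxb3 and Hoxb5 stayed called between reporter-high and Sca1- cells (adjusted p = 0.0205 and 0.0426).

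Of the Hoxc genes, 2 were above background throughout, and Hoxc10 was called through its only probe set. Hoxc10, a hindlimb gene, read 586, 500, 609 and 630 in reporter-high, 783, 592, 610 and 629 in reporter-dim cells, 834, 799, 886 and 622 in Sca1+ negative and 687, 631, 548 and 664 in Sca1- cells. Sca1+ negative cells were highest in mice 1 to 3 and not in mouse 4. The difference of reporter-high from Sca1+ negative cells was -0.43 ± 0.12 (adjusted p = 0.0165), lost without mouse 2 (0.152) or mouse 3 (0.073). Hoxc4 passed in the same comparison (-0.19 ± 0.07, 0.0406; lost without mouse 2, 3 or 4 at 0.225, 0.135 and 0.134) with both groups at background, and so did the second probe set of Hoxc5 (-0.21, 0.0273), at background in Sca1+ negative cells. Differences of the 6 Hoxc genes from Sca1- cells ran from -0.14 to 0.03 in reporter-high and from -0.08 to 0.11 in reporter-dim cells.

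Paralogs are the genes of the same number in different clusters. In reporter-high against Sca1+ negative cells, groups 10 and 13 held calls in opposite directions. Differences between paralogs were not tested. In group 10, Hoxa10 and Hoxd10 rose and Hoxc10 fell. In group 13, Hoxa13 rose, Hoxb13 fell, Hoxd13 had a difference of 0.03 and Hoxc13 was at background. In group 9, Hoxb9 fell while Hoxa9 had a difference of -0.24 and Hoxd9 of 0.01. In groups 3 and 5, Hoxa3 and Hoxa5 fell, and Hoxb3 and Hoxb5 had differences of -0.29 and -0.42 that did not pass. Over paralogs 9 to 13 of all clusters 4 of 14 rose and 3 fell, with a median of 0.02. Of all probe sets 26.2% were called in this comparison (15.2% higher, the rest lower).

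Transcripts of proteins that bind DNA with Hox proteins were partly higher in reporter-high cells. Of 8 measured Pbx, Meis and Pknox genes 5 rose in reporter-high against Sca1+ negative cells, beside 15.2% of all probe sets called higher. Pbx2, Pbx4 (-0.15) and Meis2 did not pass. The median over the 8 was 0.58, beside -0.0020 over all genes. Pknox2 rose by 1.06 ± 0.25 (adjusted p = 0.00609), Pbx3 by 0.95 ± 0.17 (0.00141) and Meis1 by 0.68 ± 0.22 (0.0346). With the epithelial covariate these calls were lost (Pknox2 0.20, adjusted p = 0.962; Pbx3 0.21, 0.916), and Meis1 turned to -0.26 (0.920). Pbx3 had the same shape as Hoxd10, with means of 3260 in reporter-high, 2560 in reporter-dim cells, 1692 in Sca1+ negative and 3806 in Sca1- cells. It was 1 of 8 called between the last 2 (-1.15 ± 0.17, adjusted p = 0.00186), beside 1.28% of all probe sets called lower. Of 6 ParaHox genes, the sister family that includes the gut regulators Cdx1 and Cdx2, these 2 fell in reporter-high against Sca1+ negative cells (-2.50 ± 0.45, adjusted p = 0.00125, and -1.36 ± 0.34, 0.00787). Cdx2 is also 1 of the epithelial markers, all 17 of which fell there.

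Of 5 measured non-coding genes of the Hox clusters, Hoxaas2 of the Hoxa cluster fell by 0.26 in reporter-high against Sca1+ negative cells (adjusted p = 0.0454), and Haglr of the Hoxd cluster was lower in Sca1+ negative than in Sca1- cells (-0.37 ± 0.09, 0.0369). Of 20 Polycomb and trithorax genes 3 rose and 3 fell in reporter-high against Sca1+ negative cells, near the background, where 15.2% of all probe sets were called higher and 26.2% in either direction. Of the members, the Polycomb subunit Phc1 rose by 0.91 ± 0.16 (adjusted p = 0.00125), the histone methyltransferase Ezh1 rose by 0.54 ± 0.11 (0.00272), and its relative Ezh2 had a difference of -0.45 ± 0.16 (0.0474). Of 11 genes of the signals that set Hox expression in the embryo, the retinoic acid receptor Rarg rose in reporter-high against Sca1+ negative cells (0.96 ± 0.15, adjusted p = 0.000503). It was the only 1 of the 11 called there, beside 15.2% of all probe sets called higher. Aldh1a2, which makes retinoic acid, was higher in Sca1+ negative than in Sca1- cells (1.71 ± 0.26, 0.00159), with means of 9046 and 2867. Of all probe sets 1.03% were called higher in that comparison.

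Of 13 measured transcription factors of regional gut mesenchyme, 7 rose and 1 fell in reporter-high against Sca1+ negative cells, beside 15.2% of all probe sets called higher. Their median was 1.12, beside -0.0020 over all genes. The hindlimb and hindgut factor Pitx1 rose by 1.66 ± 0.25 (adjusted p = 0.00051), the Hedgehog target Foxf2 by 1.66 ± 0.39 (0.00597), and Gata6 had a difference of -1.99 ± 0.24 (0.00019). With the epithelial covariate these calls were lost, at 0.77 for Pitx1 (adjusted p = 0.659), 0.53 for Foxf2 (0.919) and -0.72 for Gata6 (0.476). Satb1 and Nkx3-2 were lower in Sca1+ negative than in Sca1- cells (-2.24 ± 0.31, adjusted p = 0.000873, and -1.05 ± 0.14, 0.000723), the direction of Hoxb3 and Hoxd9.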

How the data were processed

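RNA of 16 sorted populations was measured on Affymetrix arrays. Per the submitters' processing notes, the authors used Affymetrix Expression Console 1.1; no further setting is recorded there. What was deposited are scores: within every probe set the 16 values have mean 0 and SD 1, as tested on the table. Whole-number signals behind these scores were recovered for all 45141 probe sets by searching for integers that give them (1000 of 1000 in a simulation), since the design had assumed log2 values. Log2 signals of 45037 non-control probe sets were fitted with limma 3.58.1 (R 4.3.3), 1 mean per population over all 16 arrays, with moderated tests and Benjamini-Hochberg adjustment over all probe sets (threshold 0.05). For reporter-high against Sca1+ negative cells, on simulated data, the fit recovered 90 of 99 probe sets changed by a log2 of 1 and 101 of 101 changed by 2. It also called 8 unchanged ones. The simulated noise was independent between arrays, so the simulation does not cover the mouse pairing or the Xist and epithelial differences of these data. Of the probe sets, 28898 name 1 gene, 551 several and 15588 none. Each gene is given by its probe set of highest mean signal. A probe set is at background in a population when it is at or below the highest of 23 nonspecific controls on all 4 arrays; "at least" folds use that control as the dim group's value where it is higher. The 16 Hox genes given in full are those with the smallest p of the F test among genes called anywhere; Hoxa10 and Hoxa13, outside that rule (F test not passed), are also given by array, chosen after their values were seen. The number of arrays limits the precision. The mouse numbers come from the labels and pair the arrays: deviations from population means correlated at 0.241 on average within a mouse and -0.0807 between mice, and at -0.0594 within mouse 2. Alternatives were other scalings, a filter on dim probe sets, the mouse as a block, covariates of cell markers, and each mouse or array left out. The members and lists were chosen with earlier results of these data known.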

Additional observations from a re-analysis of the deposited data

Results flagged for a closer look

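Over 64 groups of 4 arrays (16 Hox genes in 4 populations), 2 held an array far from the other 3 by Dixon's ratio of gap to range at its 95% critical value. Chance flags about 1 in 20 groups. Hoxa3 read 3562 in the Sca1- cells of mouse 4, against 2858 to 2967 in the other mice (ratio 0.830). Hoxd8 read 1037 in the reporter-high cells of mouse 4, against 1327 to 1377 in the others (ratio 0.870).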

How the results depend on the processing

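Counts of called Hox probe sets were 12 for reporter-high against Sca1+ negative, 0 for reporter-dim against Sca1+ negative, 1 for reporter-high against reporter-dim, 6 for Sca1+ negative, 20 for reporter-high and 12 for reporter-dim against Sca1- cells, and 16 by the F test. Leaving out 1 mouse or array, they ran from 5 to 14, 0 to 4, 0 to 1, 0 to 8, 13 to 21, 2 to 14 and 10 to 19 in that order. Scaling to hybridization controls gave 20, 2, 12 and, for reporter-dim against Sca1- cells, 7. Of all 45037 probe sets it called 30907, 1385, 19247 and 4928 in that order. Tests on the deposited scores gave 0 for reporter-high against reporter-dim and 0 for Sca1+ negative and for reporter-dim against Sca1- cells. Fits on the 2 populations compared gave 2 for reporter-dim against Sca1+ negative cells, 0 against reporter-high and 0 for Sca1+ negative against Sca1- cells, with fewer arrays in each fit. The epithelial covariate gave 0 and 0 for reporter-high against Sca1+ negative and reporter-dim, 2 against Sca1- cells and 5 by the F test. The Cajal covariate, chosen after seeing the data, gave 2 for reporter-dim against Sca1+ negative cells, 0 for reporter-high against reporter-dim, 0 in each comparison with Sca1- cells and 6 by the F test. Among the alternatives, counts over all probe sets are given here for the hybridization scaling alone. The other counts therefore cannot be read as shifts particular to Hox genes. The cause of these shifts was not tested.

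With the mouse as a replicate block the count for reporter-dim against Sca1+ negative cells was 5, and the 40 single-gene differences called all kept their calls. The blocked fit without mouse 2, chosen after seeing the data, gave 7 for reporter-high and 2 for reporter-dim against Sca1+ negative cells. Shares of all probe sets called in the blocked fits are not given here either.

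Differences that turned sign were, with the Cajal covariate, Hoxa9 (0.18), Hoxb7 (0.20) and Hoxd8 (0.93) for reporter-high against Sca1-, Hoxb7 (0.19) for reporter-dim against Sca1-, and Hoxb5 (0.16) and Hoxd10 (0.10) for Sca1+ negative against Sca1- cells. With the epithelial covariate it was Hoxa10 (-0.40) for reporter-high against Sca1+ negative cells. With hybridization scaling they were Hoxb1 (0.17, against Sca1-) and Hoxc4 (0.19, against Sca1+ negative) in reporter-high cells. The cause was not tested. Of the 40 differences, 10 kept their call with the Cajal covariate (24 lost) and 12 with the epithelial one (27 lost); quantile scaling ended 2 calls, array medians 1, fits on 2 populations 12, the deposited scores and hybridization scaling 14 each, and leaving out mouse 1, 2, 3 or 4 ended 7, 20, 9 and 20. Signals near the nonspecific controls limit what can be said of 13 Hox genes.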
